A study of Mus musculus with 12 samples.

Results

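Open chromatin was examined at 10 genes of the insulin-like growth factor (IGF) axis in C2C12, a mouse myoblast cell line, kept in growth medium with or without the transcription factor Runx1. The genes were the ligands Igf1 and Igf2, the receptors Igf1r, Igf2r and Insr, the receptor substrates Irs1 and Irs2, and the binding proteins Igfbp3, Igfbp4 and Igfbp5. A peak was counted for a gene when its midpoint fell inside the gene or at most 10 kb outside. By this rule 24 of the 34118 peaks of the wild-type (WT) list and 19 of the 27187 peaks of the Runx1 knockout (KO) list belonged to the 10 genes. ATAC-seq, in which the Tn5 transposase cuts and tags accessible DNA in isolated nuclei, had been applied to 12 samples in 4 groups of 3. These were WT and Runx1KO cells in growth medium with 20% serum at day 0, and both genotypes at day 2 in differentiation medium. The 5 peak lists used cover growth medium, and day 2 was not analysed here. The labels do not say whether the knockout line is 1 clone or how the gene was disrupted.

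IGF1 and IGF2 are secreted growth factors that bind the receptor tyrosine kinase IGF1R and, with other affinities, the insulin receptor. The activated receptors phosphorylate the adaptors IRS1 and IRS2, which pass the signal to PI3 kinase, AKT and mTOR. IGF2R carries IGF2 to lysosomes, and the IGF binding proteins hold the ligands outside the cell. In myoblasts the axis is known for supporting both proliferation and differentiation, and IGF2 made by the cells themselves acts during differentiation.

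By the peak names, every listed interval and value came from the replicate 1 library of its genotype. There is therefore no replicate error, no test between genotypes and no p-value below. Sequencing depth is unknown, and with it the number of peaks that a list could hold. The fold (a peak relative to its surroundings) and the −log10 q (the caller's strength of evidence for a peak, higher being stronger) are the authors' own deposited values and are used to place a peak within its own list. Values of both lists are set side by side without reading a change from them. A peak is called shared when it overlaps a peak of the other list by at least 1 bp, and WT specific or KO specific when it does not. Peak call numbers skip values in both lists, so called peaks had been removed before deposit, and a stretch without a listed peak is not shown to be closed. Whether the other replicates entered that removal is not stated. At Runx1, the targeted gene, the WT list held 19 peaks, 7 of them WT specific, and the KO list 12, none of them KO specific, which gives no direct readout of the edited allele. Of 7 myoblast marker genes, 6 had a peak in each list and Myf5 had none. Of 8 marker genes of blood, epithelial, neuronal and endothelial cells, 4 had a WT peak and 3 a KO peak. Both endothelial markers (Pecam1 and Cdh5) and the neuronal marker Rbfox3 had peaks in each list. The epithelial marker Cdh1 had a peak in the WT list only. Both blood markers (Ptprc and Cd3e), Epcam and Snap25 had none. By the same rule 65.8% of all protein-coding genes had a peak in at least 1 list. These counts therefore do not identify the cell type.

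The 5 stretches of promoter sequence shown next carry the contrast described below. The first pair, Irs1 and Irs2, had a peak on them in both lists, unlike those of the 7 other genes with a RefSeq promoter entry. The peaks covered the whole Irs2 stretch. At Irs1 they ended at chr1:82291650 (WT) and chr1:82291637 (KO), short of the end farthest from the start site. The GC boxes marked at Irs1 lie outside the KO peak, and neither is wholly inside the WT peak. The run CCGGAATG there spans the edge of the KO peak. The third is the promoter of Airn, a noncoding RNA that starts inside Igf2r. A peak of each list covered only the part of it next to the start site. The promoters of Igf2r itself and of Igf1r are shown beside them because no listed peak touched them. Each is the 250 bases before the start site, written 5′ to 3′ on the strand of the gene, from RefSeq with build GRCm38.p6. Capitals mark matches to the motifs searched on both strands, which were TGTGGT (the RUNX core), CCGGAA (ETS), CANNTG (E-box), TGANTCA (AP-1), GGAATG (TEAD) and GGGCGG (GC box).
Irs1, chr1:82291440-82291689, minus strand: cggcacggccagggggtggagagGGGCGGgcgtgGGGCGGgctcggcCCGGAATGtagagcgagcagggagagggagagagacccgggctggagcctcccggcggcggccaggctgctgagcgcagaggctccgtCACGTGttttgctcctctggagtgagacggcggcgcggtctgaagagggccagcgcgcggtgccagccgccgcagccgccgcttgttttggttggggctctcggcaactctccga
Irs2, chr8:11008930-11009179, minus strand: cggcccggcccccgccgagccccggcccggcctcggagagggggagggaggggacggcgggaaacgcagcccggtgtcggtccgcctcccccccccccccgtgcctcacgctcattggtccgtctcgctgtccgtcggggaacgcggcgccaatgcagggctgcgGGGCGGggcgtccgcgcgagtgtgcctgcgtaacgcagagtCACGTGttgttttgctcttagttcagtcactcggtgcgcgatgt
Airn, chr17:12741061-12741310, plus strand: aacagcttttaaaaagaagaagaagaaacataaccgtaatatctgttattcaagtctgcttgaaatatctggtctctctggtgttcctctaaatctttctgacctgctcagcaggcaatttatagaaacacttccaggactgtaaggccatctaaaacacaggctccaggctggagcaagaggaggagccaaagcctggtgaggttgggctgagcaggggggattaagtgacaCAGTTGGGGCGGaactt
Igf2r, chr17:12769707-12769956, minus strand: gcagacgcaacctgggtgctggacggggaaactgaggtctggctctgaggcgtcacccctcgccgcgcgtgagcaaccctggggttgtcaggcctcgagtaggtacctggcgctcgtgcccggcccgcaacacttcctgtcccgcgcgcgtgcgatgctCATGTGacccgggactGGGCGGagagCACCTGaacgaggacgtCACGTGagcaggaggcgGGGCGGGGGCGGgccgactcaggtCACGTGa
Igf1r, chr7:67952007-67952256, plus strand: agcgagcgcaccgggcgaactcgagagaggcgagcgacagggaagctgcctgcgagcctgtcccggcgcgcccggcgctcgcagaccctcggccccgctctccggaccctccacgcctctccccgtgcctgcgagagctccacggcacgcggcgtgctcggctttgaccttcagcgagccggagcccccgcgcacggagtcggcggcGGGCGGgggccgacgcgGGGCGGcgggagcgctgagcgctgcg

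In the Irs1 sequence the ETS match and the TEAD match overlap in the run CCGGAATG. In the Airn sequence the E-box and the GC box are adjacent, and in the Igf2r sequence a pair of GC boxes are adjacent. An E-box of the form CACGTG lies 115 bases before the start of Irs1 and 44 bases before the start of Irs2. The same form lies 48 and 7 bases before the start of Igf2r, which had no peak on its promoter. The Igf1r stretch holds no E-box, only GC boxes at 43 and 26 bases before the start.

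With this window the IGF axis genes divided into 7 with listed peaks and 3 without any. Igf1r, the signalling receptor, had the most, with 6 WT and 4 KO peaks. Insr had 4 in each list, Irs2 4 in each, Irs1 3 in each, Igf1 3 WT and 2 KO, Igf2r 3 WT and 1 KO, and Igfbp5 1 in each. The ligand gene Igf2 and the binding protein genes Igfbp3 and Igfbp4 had none in either list. The division moved with the window: the gene body alone left Igfbp5 without a peak, and 50 kb on either side gave Igfbp3 2 WT and 1 KO peaks and Igfbp4 1 in each list. Assignment to the nearest gene end gave Igfbp3 14 WT and 7 KO peaks. Of all 21627 protein-coding genes, 65.8% had a peak by the same rule in at least 1 list, and genes with a WT peak had a median of 2.

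**Figure D1:**
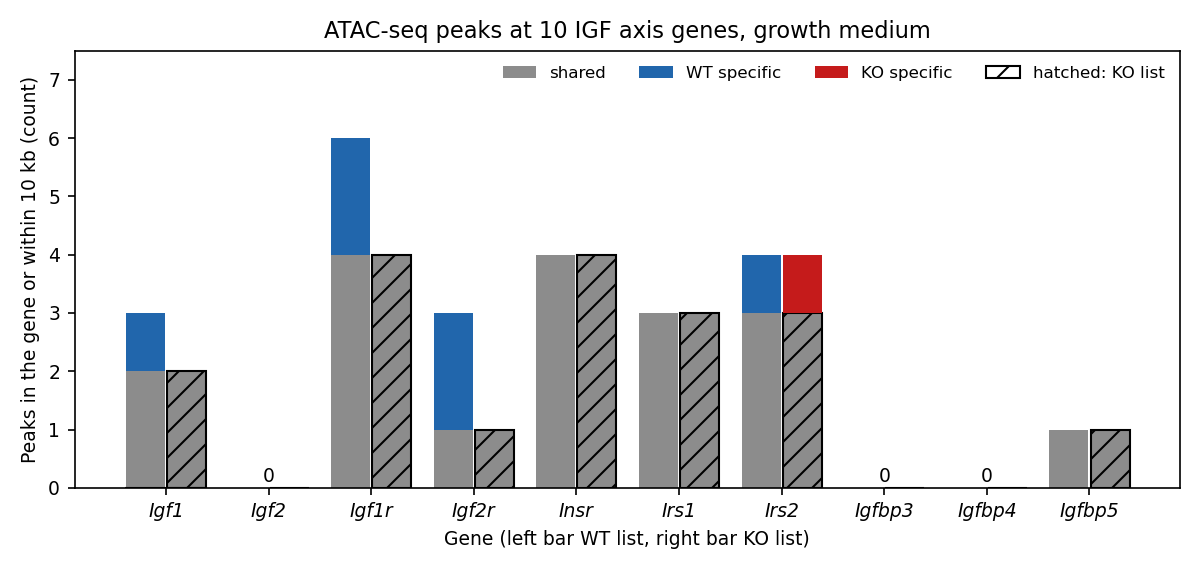
Number of listed ATAC-seq peaks in each IGF axis gene and its 10 kb flanks (y axis, count; 1 library per list); the left bar is the WT list and the right, hatched bar the KO list, split into shared peaks (grey), WT specific peaks (blue) and KO specific peaks (red). Igf1r has 6 WT and 4 KO peaks, and Igf2, Igfbp3 and Igfbp4 have 0 in both lists.

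Most of these peaks were found in both genotypes. Of the 24 WT peaks, 18 were shared and 6 were WT specific (25%), where 27.3% of all WT peaks were WT specific. Of the 19 KO peaks, 18 were shared and 1 was KO specific (5.26%), where 9.59% of all KO peaks were KO specific. Both shares lay near those of the whole lists, and no difference from them was tested. The 6 WT specific peaks lay at Igf1r (2), Igf2r (2), Igf1 (1) and Irs2 (1), and the KO specific peak lay at Irs2. Thus 4 of the 7 genes with a WT peak had a WT specific one, beside 39.1% of all protein-coding genes with a WT peak. A KO specific peak was found at 1 of 7, where the share over genes with a KO peak was 12.3%. Neither comparison of genes was adjusted for the number of peaks at a gene. The counts were not scaled by length, and Igf1r, at 281 kb, is the longest of the 10 genes. Per 100 kb of gene and flanks, Igf1r had 1.99 WT peaks, the lowest of the 7 genes with peaks. Irs2 had the highest, 9.04. Each of the 18 shared WT peaks had a single KO partner. The summits of partners lay from 0 to 124 bp apart, with a median of 20 bp, beside a median of 31 bp over the 24700 shared WT peaks with 1 partner.

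The median peak at the IGF axis genes lay below the median of its list in both genotypes, a difference that was not tested. The median −log10 q was 11.9 in WT, against 16.1 for the whole list, and 13.4 in KO, against 17.6. The median peak of the IGF axis stood above 35.7% of its list in both the WT and the KO list. With 50 kb on either side these values were 45.6% and 43.3%, and with the gene body alone 30.2% and 40.3%. At or above the list median were 7 of 24 WT peaks and 6 of 19 KO peaks. The range was wide, from a WT specific peak at Irs2 with a −log10 q of 2.00 to a shared peak inside Insr with 64.0.

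**Figure D2:**
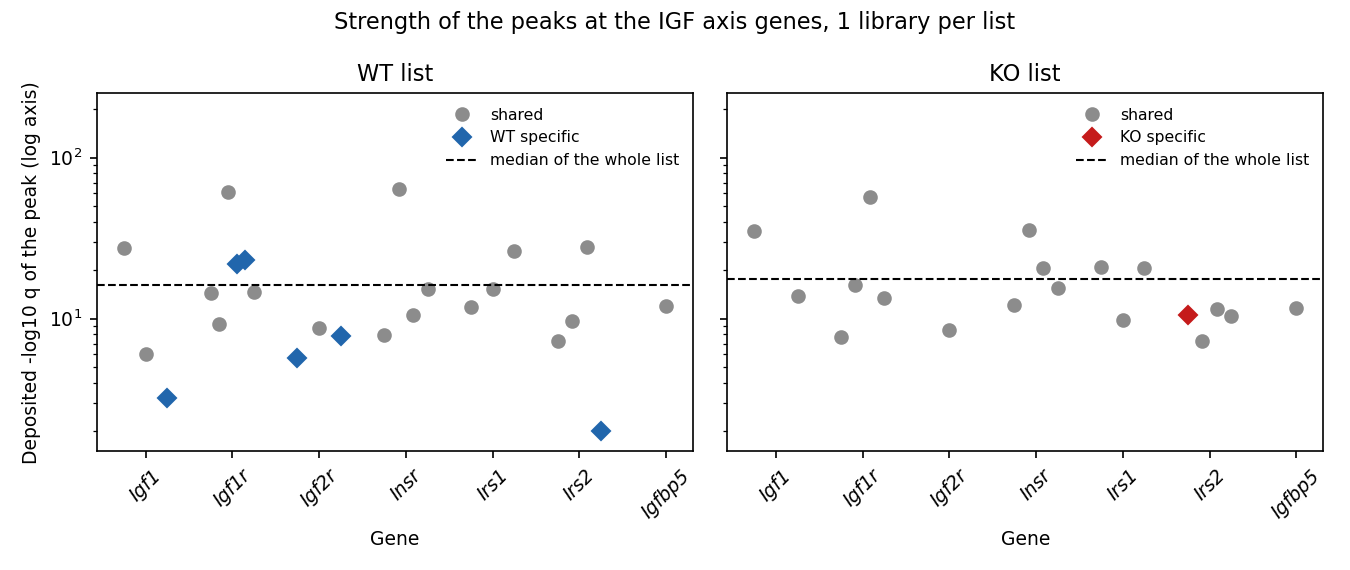
Deposited −log10 q of every listed peak at the 7 IGF axis genes with peaks (log y axis), in the WT list (left) and the KO list (right), 1 library each; circles are shared peaks, diamonds are specific peaks, and the dashed line is the median of the whole list (16.1 and 17.6). The 2 WT specific peaks at Igf1r lie above the line, while the other 4 WT specific peaks and the KO specific peak at Irs2 lie under it.

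Among the ligand genes, Igf1 had listed peaks inside the gene and none at its start. Igf1 (gene ID 16000, chr10:87858265-87937047, plus strand) makes the growth factor that enlarges muscle fibres. A shared peak lay 19.2 kb after the start site, at chr10:87879984-87880606 in the WT list, with a fold of 13.4 and a −log10 q of 27.3. Its KO partner at chr10:87879927-87880511 had a fold of 14.0 and a −log10 q of 34.9, and each was among the stronger peaks of its list, above 73.6% and 83.6% of the peaks. A further shared peak 24.6 kb after the start was weak in the WT list, with a −log10 q of 6.01, and had 13.9 in the KO list. The WT specific peak at chr10:87904975-87905394, 44.1 kb after the start, had a fold of 4.44 and a −log10 q of 3.21, and only 1.69% of the WT list was weaker. The nearest KO peak was 18.9 kb away, and 1 KO call number was missing in that stretch. The nearest peak to the Igf1 start was thus the shared one inside the gene, in both lists.

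Igf2 (gene ID 16002, chr7:142650768-142666816, minus strand) had no listed peak at any of its 4 RefSeq start sites. This imprinted gene is expressed from the paternal copy, and shares its distal enhancers with the neighbouring noncoding gene H19. From the gene, the nearest WT peak was 75.5 kb away and the nearest KO peak 98.7 kb away, both on the side of H19. That stretch was described after its values had been seen. From 150 kb below Igf2 to 10 kb above it the WT list held 5 peaks, 2 of them WT specific, and the KO list held 3, none of them KO specific. The WT specific peak nearest to Igf2, at chr7:142574804-142575243, lay 287 bp outside H19, with a fold of 4.88 and a −log10 q of 6.57. Between the KO peaks that flank it, 6 KO call numbers were missing.

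In the same stretch, Nctc1, a noncoding gene known to contain a skeletal muscle enhancer of the Igf2 and H19 domain, held 3 WT and 2 KO peaks. The strongest was shared, at chr7:142550904-142551359 in the WT list, with a −log10 q of 29.4 and a fold of 8.97. Its KO partner had a −log10 q of 24.5 and a fold of 8.13. The other shared peak had a −log10 q of 18.7 (WT) and 5.61 (KO). The third WT peak, at chr7:142550026-142550359, was WT specific with a −log10 q of 18.9 and lay 595 bp from the nearest KO peak. It stood above 57.3% of the WT list, and 1 KO call number was missing beside it. The gene Igf2 itself was therefore without a listed peak while Nctc1 had shared peaks in both genotypes. Between the retained peaks that flank the Igf2 start sites, 5 WT and 6 KO call numbers were missing. Calls had thus been removed from that stretch in both lists, and Igf2 is not shown to be closed.

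Among the receptors, Igf1r held the strongest specific peaks of the IGF axis. Igf1r (gene ID 16001, chr7:67952257-68233668, plus strand) encodes the receptor tyrosine kinase through which IGF1 and IGF2 signal. The WT specific peak at chr7:68030930-68031243, 78.8 kb after the start, had a fold of 12.2 and a −log10 q of 21.9. The one at chr7:68048698-68048903, 96.5 kb after the start, had a fold of 12.7 and a −log10 q of 23.2. Both were stronger than the median of the whole WT list, and stood above 64.1% and 66.6% of it. Within the 9318 WT specific peaks, whose median −log10 q was 8.38, they stood above 96.5% and 97.2%. Only 258 WT specific peaks were at or above the −log10 q of the stronger one. The nearest KO peak was 8579 bp from the former and 26347 bp from the latter. Both lie in 1 stretch between retained KO peaks in which 3 KO call numbers were missing, so KO calls had been removed from it. Whether a removed call covered either WT peak is not given in the lists.

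The remaining Igf1r peaks were shared. The strongest, at chr7:68021625-68022360, lay 69.7 kb after the start with a fold of 18.6 and a −log10 q of 61.0, above 95.5% of the WT list. Its KO partner at chr7:68021629-68022351 had a fold of 16.8 and a −log10 q of 56.9, above 96.1% of the KO list, and the summits fell on the same base. The WT specific peaks are thus the next WT peaks along the gene after a strong shared one. The peaks 16.4 and 177 kb (WT list) after the start were weaker, with a −log10 q of 9.27 and 14.7 in WT, and 16.2 and 13.4 in KO. The peak nearest to the start site had its centre 474 bp before it in the WT list and 665 bp before it in the KO list. It ended 71 bp (WT) and 98 bp (KO) short of the promoter window of 250 bases before to 50 bases after the start. This peak had a −log10 q of 14.5 (WT) and 7.70 (KO).

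**Figure D3:**
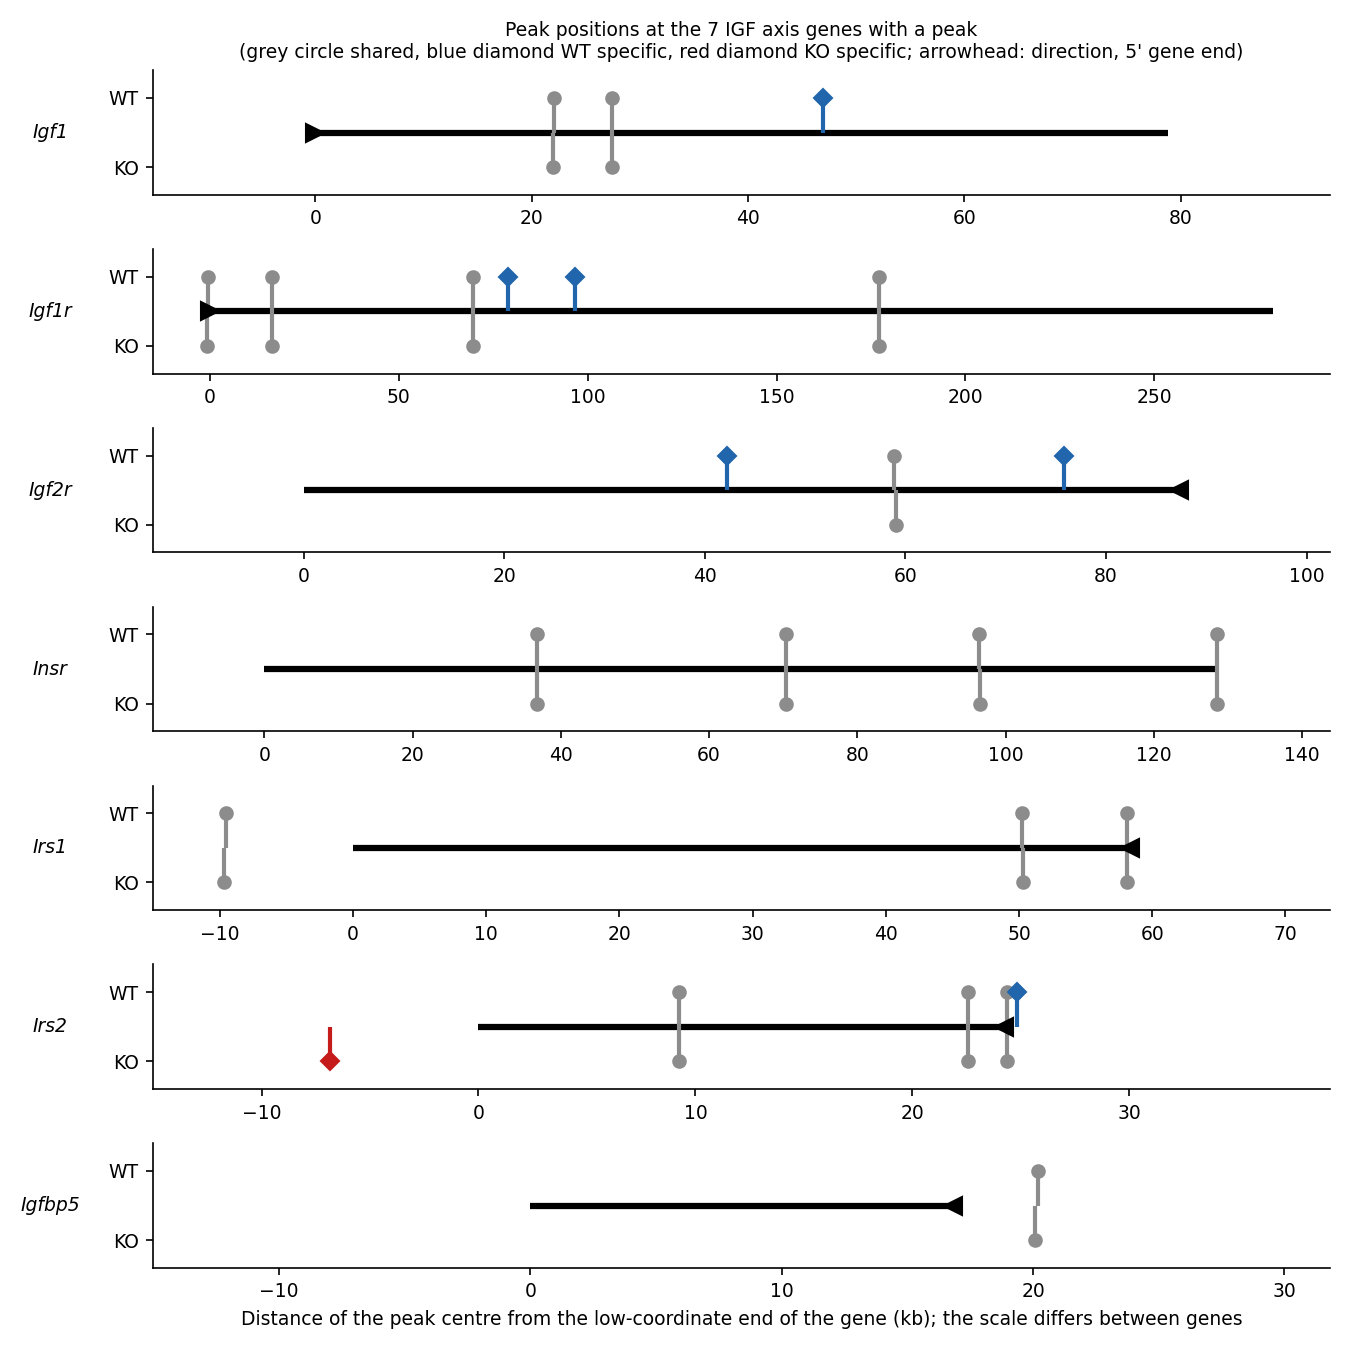
Centres of the listed peaks along the 7 IGF axis genes with a peak (x axis, distance from the low-coordinate end of the gene in kb, with its own scale for each gene); WT peaks point up and KO peaks down, grey circles are shared, blue diamonds WT specific and red diamonds KO specific, and the arrowhead marks the 5′ end and direction where the RefSeq promoter table gives a strand. The WT specific peaks at Igf1r lie 78.8 and 96.5 kb into the gene, next to the shared peak at 69.7 kb.

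Igf2r had a listed peak at the start of its antisense transcript and none at its own. Igf2r (gene ID 16004, chr17:12682406-12769706, minus strand) encodes the receptor that removes IGF2, and is imprinted in mice. Its silencing on the paternal copy is known to depend on Airn, which starts within Igf2r and runs in the opposite direction. The only shared peak of the gene, at chr17:12741206-12741403 (WT) and chr17:12741268-12741569 (KO), lay on the Airn start site at chr17:12741311. Of the Airn promoter window it covered 155 bases (WT) and 93 bases (KO). It was weak in both, with a fold of 6.35 and a −log10 q of 8.69 in the WT list and a fold of 6.03 and a −log10 q of 8.50 in the KO list. The partners overlapped by 136 bp, and their summits were 27 bp apart.

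The other peaks of Igf2r were WT specific and weak. The one at chr17:12758083-12758243 lay 11.5 kb after the Igf2r start, with a fold of 6.04 and a −log10 q of 7.84. The one at chr17:12724484-12724785 lay 45.1 kb after the start, with a fold of 5.30 and a −log10 q of 5.70. Both ranked in the lower part of the WT list, above 18.8% and 9.50% of its peaks. The KO list lacked 2 call numbers beside the former. Beside the latter no KO call number was missing, so no removed KO call lies between the KO peaks that flank it. It is the only specific peak of the IGF axis genes for which this held, since at least 1 number was missing beside each of the other 6.

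Insr (gene ID 16337, chr8:3150922-3279649), the insulin receptor gene, had 4 peaks in each list and every one was shared. The strongest peak of all IGF axis genes in the WT list lay inside it at chr8:3221020-3221549, with a fold of 20.1 and a −log10 q of 64.0, above 96.2% of the list. Its KO partner at chr8:3221062-3221614 had a fold of 13.5 and a −log10 q of 35.3, above 84.0% of the KO list. These values come from libraries of unknown depth and were not compared. A peak lay at the high-coordinate end of the gene, at chr8:3279280-3279678 in the WT list, with a −log10 q of 15.2, and 15.6 for its KO partner. The remaining peaks had a −log10 q of 7.91 and 10.5 in WT, and 12.1 and 20.5 in KO. Insr had no entry in the promoter table, so whether the peak at its high-coordinate end lay on a start site was not read.

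The receptor substrates were, among the 9 genes with a promoter entry, those with a peak on the start site. Irs1 (gene ID 16367, chr1:82233105-82291439, minus strand) encodes the adaptor that couples the IGF1 and insulin receptors to PI3 kinase. The peak at chr1:82290760-82291650 was the widest of the WT peaks at the IGF axis genes, at 891 bp, and covered 261 of the 300 bases of the promoter window. It had a fold of 8.03 and a −log10 q of 26.4, and its KO partner at chr1:82290794-82291637 covered 248 bases with a fold of 6.69 and a −log10 q of 20.6. A peak 8.12 kb (WT list) after the start had a −log10 q of 15.2 (WT) and 9.84 (KO). The third lay outside the gene, past its 3′ end, with 11.8 (WT) and 20.8 (KO). All 3 were shared by the 1 bp rule. When 50% of a peak had to overlap, 1 KO peak at Irs1 counted as KO specific, and assignment to the nearest gene end gave Irs1 9 KO peaks and 14 WT peaks, with 5 WT specific ones.

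Irs2 (gene ID 384783, chr8:10984681-11008929, minus strand), the second substrate, had the only KO specific peak of the IGF axis genes. Its start site lay under a shared peak at chr8:11008836-11009220 in the WT list, which covered all 300 bases of the window, with a fold of 9.65 and a −log10 q of 27.7. The KO partner at chr8:11008881-11009235 covered 299 bases with a fold of 5.48 and a −log10 q of 10.4. Within its own list the WT peak stood above 74.0% of the peaks and the KO peak above 23.7%. The lists differ in length and their depth is unknown, so these ranks show no change. A WT specific peak next to it, at chr8:11009371-11009661 and centred 587 bp before the start, was the weakest peak of the set, with a fold of 2.96 and a −log10 q of 2.00. It lay 136 bp from the KO peak on the start site, and became shared when partners within 500 bp were accepted. The KO specific peak at chr8:10977619-10978067 lay past the 3′ end, 31.1 kb from the start, with a fold of 7.04 and a −log10 q of 10.5, above 24.2% of the KO list. It was 15.6 kb from the nearest WT peak, and 3 WT call numbers were missing in that stretch. The other shared peaks of Irs2 had a −log10 q of 7.28 and 9.67 in WT, and 7.26 and 11.5 in KO. The noncoding gene 9530052E02Rik overlaps the Irs2 start, so the start site peaks lie inside it as well.

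Of the binding protein genes only Igfbp5 had a listed peak. Igfbp5 (gene ID 16011, chr1:72858065-72874865, minus strand), whose protein is known to be made by differentiating myoblasts, had 1 shared peak 3.39 kb before its start in the WT list. That peak, at chr1:72877975-72878534, had a fold of 7.61 and a −log10 q of 12.0, and its KO partner a fold of 6.97 and a −log10 q of 11.7. The values put it under the median of each list. Igfbp3 (gene ID 16009, chr11:7206086-7215498, minus strand), which encodes the main IGF carrier in serum, had its nearest WT peak 11.4 kb from the gene. This peak was WT specific and weak, at chr11:7226880-7227541 with a fold of 5.66 and a −log10 q of 5.96. The nearest KO peak was shared and lay 22.2 kb away, with a −log10 q of 33.6. Both lie in the noncoding gene Gm36565. Igfbp4 (gene ID 16010, chr11:99040005-99052655, plus strand) had its nearest peak 15.6 kb away in both lists, at the high-coordinate end of Top2a, the gene of a DNA topoisomerase of dividing cells. It was shared, with a −log10 q of 41.2 (WT) and 37.8 (KO).

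Few start sites of the IGF axis genes with a promoter entry lay under a peak. Insr has no entry and was not counted, although a shared peak covered its high-coordinate end in both lists. Of 9 genes with a promoter entry, 2 had a WT peak on a promoter window and the same 2, Irs1 and Irs2, had a KO peak there. Over 17273 protein-coding genes with an entry, 43.0% had a WT peak and 39.5% a KO peak on a window. Of the 12 windows of the IGF axis genes, 6 held at least 25 CpG dinucleotides, a limit chosen after the values were seen. These 6 belong to Igf1r, Igf2r, Irs1, Irs2, Igfbp3 and Igfbp4, with 48, 34, 28, 41, 37 and 27 CpG. A WT peak lay on 2 of them, where 68.1% of the 6053 windows of the whole table with this many CpG had one. Some of these 6 windows had no peak. Between the WT peaks that flank those, the missing WT call numbers were 1 at Igf1r, 0 at Igf2r, 4 at Igfbp3 and 2 at Igfbp4. At the Igf2r promoter no WT call had therefore been removed. In the KO list 2 were missing there, and 0 at Igf1r, 3 at Igfbp3 and 3 at Igfbp4. At the windows with fewer CpG, 5 WT and 6 KO call numbers were missing at Igf2. Igf1 and Igfbp5 each lacked 2 WT and 1 KO call numbers.

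The motif content of the promoters was a description of letters only. The RUNX core occurred in 1 of 12 windows, that of Igfbp3 at 223 bases before the start, and in 16.8% of the 32851 windows of the table. ETS matches occurred in 2 windows, Irs1 and Igfbp3 (16.7%, and 14.9% of all). E-boxes occurred in 9 (75%, and 72.3% of all) and AP-1 matches in 1, that of Igf1 (8.33%, and 7.81% of all). TEAD matches occurred in 5 windows of 3 genes, 3 of them at Igf2 (41.7%, and 14.7% of all). GC boxes occurred in 6 windows (50%, and 35.7% of all). The form CACGTG, chosen after the matches were seen, occurred at Irs1, Irs2 and Igf2r and in 7.15% of all windows. The 12 windows come from 9 genes, and no difference from the table was tested. They also held more CpG, with a median of 25.5 against 7 over all windows. CACGTG and GGGCGG each contain a CpG, and the shares were not adjusted for it.

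The rest of the pathway was read from a list of 52 genes. Of these, 43 had a peak, and they held 144 WT peaks, of which 33 (22.9%) were WT specific, and 122 KO peaks, of which 12 (9.84%) were KO specific. The whole lists had 27.3% and 9.59%. WT specific peaks occurred at 21 of the 43 genes with a WT peak (48.8%), where the share over all protein-coding genes was 39.1%. KO specific peaks occurred at 10 of the 40 genes with a KO peak (25%), where that share was 12.3%. Neither difference was tested, and the counts were not adjusted for the number of peaks at a gene. Unlike the IGF axis genes, whose median peak stood above 35.7% of each list, the median peak of the pathway list stood above 50.5% of the WT list and 48.2% of the KO list. That difference was not tested.

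The roles in the pathway held few peaks each, and their shares are given as a description. The 8 genes of the mTOR arm held 27 peaks in the WT list, of which 10 were WT specific (37.0%, exact binomial 95% interval 19.4 to 57.6%). In the KO list they held 18, of which 1 was KO specific. The interval covers counting error only and treats peaks as independent, although 4 of the 10 lay at Mtor. It is no test against the 27.3% of the whole list. Intervals are given only for this group and the outputs of AKT, which had the highest WT specific shares. Mtor, the kinase that controls protein synthesis and growth, had 5 WT peaks, of which 4 were WT specific, and 1 KO peak. Those 4 had a −log10 q of 14.1, 2.49, 11.6 and 16.5 along the chromosome, so 1 of them exceeded the list median. Rptor and Tsc2, a partner and an inhibitor of mTOR, had 2 WT specific peaks each. The 9 genes of PI3 kinase and AKT held 32 WT peaks with 4 WT specific ones, of which Akt2 had 2, and 29 KO peaks with 1 KO specific one. The 4 genes of the outputs of AKT held 12 WT peaks, of which 5 were WT specific (41.7%, interval 15.2 to 72.3%), and 7 KO peaks, none of them KO specific. Among them Foxo3, a transcription factor that AKT keeps out of the nucleus, had 2 WT specific peaks among 7 WT peaks.

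The 9 adaptor genes held 21 WT peaks (6 WT specific) and 18 KO peaks (3 KO specific). Sos1 and Sos2, exchange factors for RAS, had 2 WT specific peaks each, and their KO peaks were all shared. Grb2, the adaptor that binds them, had 1 specific peak of each genotype, and the WT specific one had a −log10 q of 20.5. Socs1 and Socs3, suppressors of cytokine and insulin signalling, had 2 specific peaks of WT and 1 of KO each. The 10 genes of other binding proteins and their proteases held 28 WT peaks (3 WT specific) and 29 KO peaks (4 KO specific). Pappa, a protease that releases IGF from IGFBP4, had 3 of the 4, with a −log10 q of 19.4, 11.1 and 11.5, among 5 KO peaks. Igfbp7 had 2 WT specific peaks among 7. The other 9 of the 52 genes had no peak in either list.

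**Figure D4:**
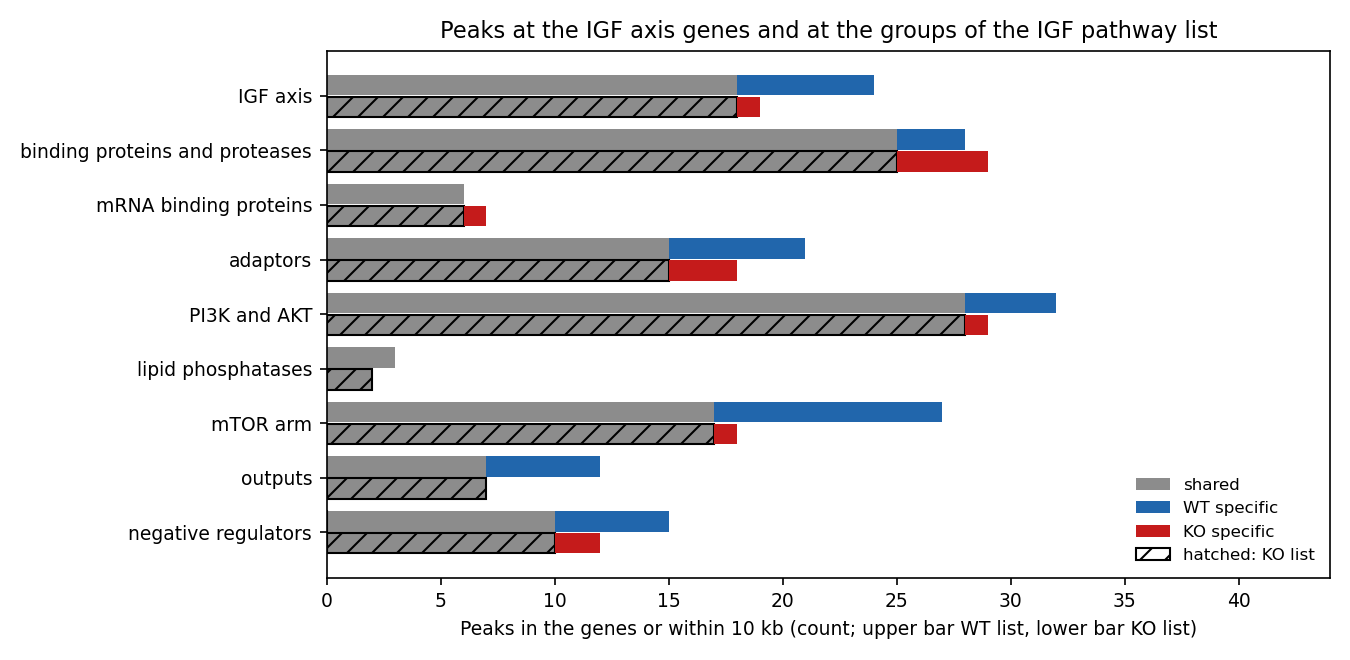
Number of listed peaks (x axis, count; 1 library per list) at the 10 IGF axis genes and at the groups of the 52 pathway genes that had a peak; upper bars are the WT list and lower, hatched bars the KO list, with shared peaks in grey, WT specific in blue and KO specific in red. The mTOR arm has 10 WT specific among 27 WT peaks and the IGF axis 6 among 24.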

How the data were processed

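The members, the gene lists and the comparisons were chosen with earlier results of these data known. Per the labels, cells were lysed with detergent and the nuclei treated with Tn5. Per the submitters' processing notes the build is mm10. The aligner, the peak caller, filters, the Tn5 offset and the pooling of samples are not given in the sources used here, and each can move peak edges and numbers. The deposited fold of a peak is a ratio over local background, and the deposited −log10 q is the authors' evidence for it, and both depend on depth. Peak names carry the replicate 1 label of their genotype.

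Classes were read from the deposited shared and specific lists and equal an overlap of at least 1 bp. Genes and promoters came from RefSeq tables of GRCm38.p6, the assembly named mm10, with entries for 9 of the 10 genes. At a promoter window lay 21.9% of WT peaks, and 1.24 to 1.34% after shifts of 10 or 100 kb either way. A percentile is the share of peaks of the same list with a lower value. All 10 genes were named, with Runx1, some marker genes, genes of the pathway list with at least 2 specific peaks, and genes sharing a peak with a member (Airn, 9530052E02Rik and Gm51488). H19, Nctc1, Gm36565 and Top2a were named after values were seen. One gene of the marker list is not reported here. The work was done in Python 3.11.15 (pandas 2.3.3, numpy 2.4.6 and, for intervals, scipy 1.17.1). On simulated data 5 of 5 checks passed, including overlaps against bedtools 2.31.1. The alternatives changed the window, the assignment, the overlap, the threshold and the motif.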

Additional observations from a re-analysis of the deposited data

How the results depend on the processing

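No paired analysis was possible because the values of each genotype come from 1 library, and for the same reason no replicate could be left out. Depth is unknown and limits which weak peaks were listed. Of 99 alternatives to the main results, 67 were scored as the same and 32 as moved. The scoring was loose: WT specific shares of 14.3% and 36.7% both counted as the same as 25%. These counts are therefore no measure of stability. At the IGF axis genes, the gene body alone and a window of 5 kb each left 0 KO specific peaks (0%). A window of 50 kb held 37 WT and 29 KO peaks. Assignment to the nearest gene end gave 60 WT peaks (22 WT specific) and 40 KO peaks (2 KO specific). An overlap of 50% of the peak gave 5 KO specific peaks (26.3%), and the share of the whole KO list under that rule is not given here. A −log10 q of at least 10 left 14 WT peaks, 2 of them WT specific, and none at Igf2r in either list. Peaks at or above the list median numbered 7 WT (2 WT specific) and 6 KO (0 KO specific, 0%). The 2 WT specific peaks left were those at Igf1r. At the pathway list, 50 kb gave 273 WT (67 WT specific) and 220 KO peaks, the nearest gene end 21 KO specific peaks, an overlap of 50% 19 KO specific peaks, a −log10 q of at least 10 left 14 WT specific and 4 KO specific peaks, and the list median left 74 WT (6 WT specific) and 59 KO peaks (1 KO specific). The E-box form CAGCTG in place of CANNTG occurred in 8.33% of the promoter windows of the IGF axis genes, and CACGTG, added after seeing the data, in 25%. The share of WT peaks at the IGF axis genes that were WT specific, 25% as reported, ran from 14.3% with a −log10 q of at least 10 to 36.7% by nearest gene end. The KO specific share, 5.26% as reported, ran from 0% to 26.3%. The 27.3% and 9.59% of the whole lists hold for the 1 bp rule without a threshold. No whole-list shares are given here for the other overlap rules or the thresholds.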

Other observations

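The lists of specific peaks hold an unnamed column that repeats the start of some peaks. None of the 7 specific peaks at the IGF axis genes carried it (0 of 6 WT specific and 0 of 1 KO specific), where 10.7% of all WT specific and 2.22% of all KO specific peaks did. In the pathway list 5 WT specific peaks carried it, 4 of them in the mTOR arm. What the column stands for is not stated.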
